A study of Mus musculus with 6 samples.

Results

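The EpCAM- tumour cells of a mouse pancreatic cancer model were described here by their own RNA levels, gene by gene, in the 3 libraries made from them. The members were chosen by measured values. All 25978 genes of the table were ranked by the mean of their 3 log2 values, the 300 highest genes were taken as the abundance profile, and 123 genes with a mean of at least 8 and an SD of at least 1 over the 3 libraries were taken as the variable genes. The 300 are 1.15% of the genes in the table, and the 123 are 1.35% of the 9079 genes with a mean of at least 8. Both shares follow from the thresholds, so levels and spreads are given as descriptions and no test is attached to them. The series holds 6 libraries, and the others, made from EpCAM+ cells, enter no value here.

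The cells came from primary pancreatic tumours of KPCY mice on a C57BL/6 background, aged 5 to 7 weeks. Among the alleles of these mice are Pdx1-Cre, which drives recombination in the developing pancreas, Trp53fl/fl, which is deleted there, and Rosa26LSL-YFP, which makes the recombined cells and their descendants fluoresce yellow. EpCAM- is the surface phenotype of the sort, and the labels call the cells primary pancreatic cancer cells. Pdx1-Cre acts in normal pancreatic cells as well as in tumour cells, so YFP marks descent from the pancreas and not malignancy. The labels count the 3 libraries as separate samples of this sort but do not say whether they came from separate animals, so the spread between them may be technical in part.

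EpCAM is an adhesion molecule of the surface of epithelial cells, and carcinoma cells that lose it have often passed through an epithelial to mesenchymal transition. In that change, transcription factors of the Snail, Zeb, Twist and Prrx families repress junction genes, while the cells build vimentin filaments, stress fibres and integrin contacts and secrete a matrix of fibronectin, collagens and tenascin. Pancreatic tumours also hold many fibroblasts, which make much of the same matrix and share many of these genes. An RNA level in a sorted pool therefore does not by itself name the cell that made it.

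The markers given for these cells were all well expressed. Fn1, which encodes fibronectin, the glycoprotein that links integrins to collagen (chromosome 1, 71585520 to 71653200, minus strand, GRCm38), had deposited log2 levels of 19.31, 20.05 and 19.09 in replicates 1, 2 and 3. Vim, the gene of the mesenchymal intermediate filament vimentin (chromosome 2, 13573927 to 13582826, plus strand), had 17.18, 16.61 and 16.71. Prrx1, a homeobox factor of mesenchyme, had 12.48, 12.67 and 12.49. Fn1 was highest in replicate 2 and Vim in replicate 1, while Prrx1 was nearly level.

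All 15 genes of a mesenchymal marker list had a mean of at least 8, with a median of 12.09 over the list. The list's mean level was 12.78, 12.95 and 12.39 in the 3 libraries. Besides the markers above it holds Zeb1 (10.91, 11.05 and 10.75) and Zeb2 (11.79, 12.48 and 12.01), repressors of Cdh1, and Twist1 (10.48, 10.87 and 10.80), a helix-loop-helix factor. It also holds Cdh2, the gene of N-cadherin, at 12.36, 11.65 and 12.12. Twist2, by contrast, was listed at 1.92, 1.96 and 1.82 in these libraries.

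Epcam itself, the gene of the sort (chromosome 17, 87635979 to 87651129), had 8.42, 8.22 and 7.22, a mean of 7.96 ± 0.64 (SD, n = 3). It was lowest in replicate 3 and stood at rank 9154 of the 25978 genes. Of 20 epithelial markers, 7 had a mean of at least 8, with a median of 11.56 over these 7 and of 7.09 over the list. Cdh1, the gene of E-cadherin, was well expressed at 11.51, 10.47 and 13.25. The keratins of simple epithelia led that list, with Krt8 at 14.17, 13.20 and 14.05 and Krt18 at 13.93, 13.25 and 14.01. Both keratins lay within the 300 highest genes, whereas the epithelial regulators Grhl2 (4.31, 4.87 and 4.24) and Esrp1 (5.85, 5.55 and 4.95) and the trafficking gene Rab25 (4.86, 4.27 and 3.63) lay far below. Trp53, the floxed gene, was listed at 7.46, 7.38 and 7.29; whether reads there came from the part of the gene outside the deletion was not tested.

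Markers of most other cell types of the pancreas were low. All 14 lymphocyte markers and all 15 islet markers had a mean under 5. Of 17 macrophage markers, 11 were under 5, and only Mrc1 and Cd14 reached 8; Ptprc, the pan-leukocyte gene Cd45, had 4.71, 4.72 and 3.67. Of 13 endothelial markers, 9 were under 5 and Flt1 alone reached 8, at 11.97, 13.19 and 12.85, while Pecam1 had 5.47, 4.99 and 4.51. None of 21 acinar markers reached 8. Of 10 mesothelial markers, 8 were under 5 and 2 reached 8, with a median of 12.05 over these 2. Duct markers were a different case, with 9 of 12 at 8 or more, led by Spp1 and Sox9. Their median was 8.43 over the 12 and 8.77 over the 9, so many lay near that level.

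Fibroblast markers were not low. Of 21 pan-fibroblast markers, 15 had a mean of at least 8, and 4 of them (Fbln2, Col3a1, Col1a1 and Col1a2) lay within the 300 highest genes. Their summed level, after back-transformation, was 0.844%, 0.987% and 0.503% of the total in replicates 1, 2 and 3. Pdgfra, a fibroblast receptor gene, had 9.19, 9.60 and 8.61. Fap had 5.77, 6.03 and 3.81. How much of any result below comes from fibroblasts in the sorted pools was not tested.

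RNA was concentrated in few genes. After back-transformation, the 300 highest genes held 32.5%, 34.1% and 32.7% of the summed values in replicates 1, 2 and 3, and the 10 highest held 6.49%, 8.50% and 6.52%. Fn1 alone made up 2.43%, 4.06% and 2.16%. The larger share of the 10 highest genes in replicate 2 goes with Fn1 and with CT010467.1, a gene annotated as ribosomal RNA, which had 16.16, 18.17 and 17.12. The lowest of the 300 means was 13.60, and their median was 14.18.

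The libraries ranked genes alike at this level. Over the 9079 genes with a mean of at least 8, Pearson's r across genes was 0.949 between replicates 1 and 2, 0.954 between 1 and 3 and 0.964 between 2 and 3; genes are not independent replicates. Of the 300 genes, 218 were in each library's own highest 300. When the 300 were chosen from only the other 2 libraries, 241 of them were in the highest 300 of replicate 1, 252 in that of replicate 2 and 266 in that of replicate 3. The SD of the 300 ranged from 0.02 to 1.39 with a median of 0.24, beside a median of 0.20 over the 9079 genes. An SD under 0.5 was found in 261 of the 300, and in 91.2% of the 9079 genes.

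On the deposited scale, Fn1 was followed by Eef1a1, the elongation factor that carries aminoacyl-tRNA to the ribosome, at 17.71, 17.22 and 17.40. After CT010467.1 came mt-Co1, a mitochondrially encoded subunit of cytochrome oxidase, at 16.67, 17.06 and 17.01. Spp1, the gene of the secreted phosphoprotein osteopontin (chromosome 5, 104435118 to 104441050), had 16.90, 16.68 and 17.16. The rest of the 20 highest included Myh9, Vim, Ahnak, Actg1, Hspa8, Fbln2, Hsp90ab1, Flna, Actb, Pkm, Emp1, Tnc, Nedd4 and Gm10925. Among these 20 genes only CT010467.1 had an SD of at least 1.

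**Figure D1:**
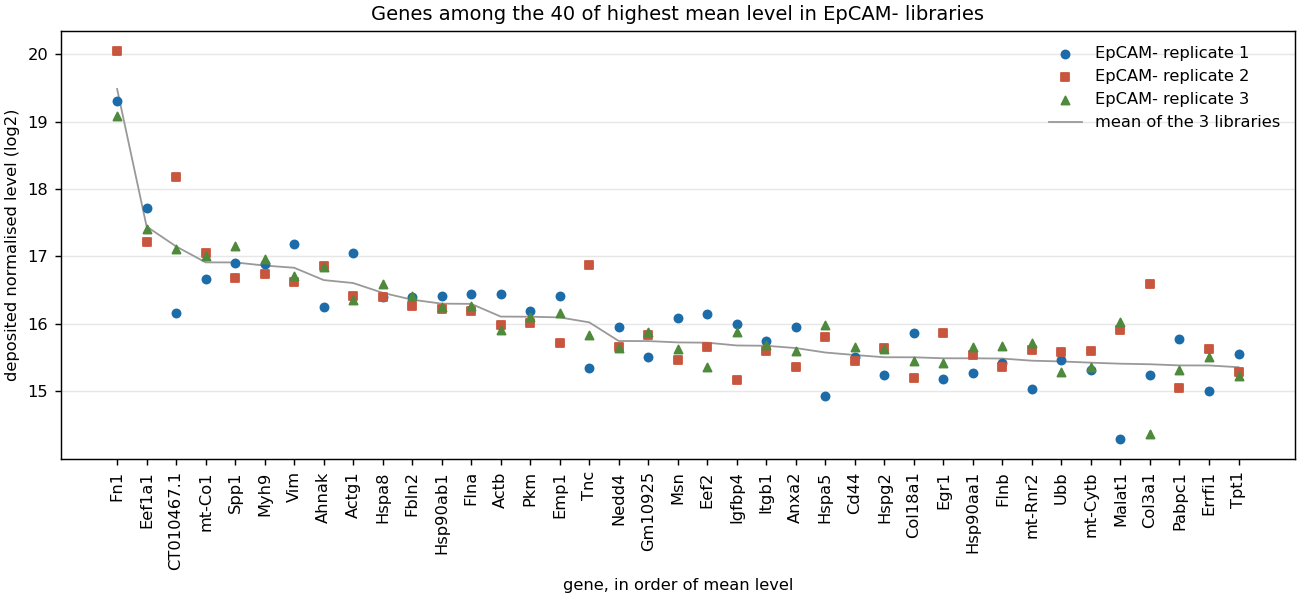
Deposited normalised level (log2, vertical axis) of genes among the 40 of highest mean in the EpCAM- libraries, in order of their mean (horizontal axis); each symbol is 1 library and the line joins the means. Fn1 stands apart at the left in all 3 libraries, and CT010467.1, Tnc, Malat1 and Col3a1 show the widest gaps between libraries.

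No source used here states a correction of the deposited values for gene length, so levels of different genes were also set side by side per kb of exon length. Divided by exon length in kb, the first genes were Gm10925 (16.31, mean log2 level per kb), mt-Co1 (16.28), Spp1 (16.19), Eef1a1 (16.13) and Fn1 (15.94). On this scale Fn1 had rank 5, and Spp1, with 1648 exon bases against 11685 for Fn1, had rank 3. Vim, at 14.59 per kb, had rank 21. Of the 300 highest genes as deposited, 175 were also among the 300 highest per kb, and the median exon length was 4882 bases in the first set and 2093.5 in the second. Of the first set 289 were annotated as protein-coding, and of the second 258, with 35 pseudogenes.

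A function could be assigned by gene lists to 252 of the 300 genes, and 48 were in no list. The lists were chosen with earlier results of these data known, so these counts may follow in part from that choice. The lists cover 7.87% of all genes in the table and 17.9% of those with a mean of at least 8. The lists differ in size, from 25 mitochondrially encoded genes to 164 genes of RNA binding and splicing.

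The extracellular matrix took 34 of the 300 places, from 241 matrix genes in the table, and 148 of these 241 had a mean of at least 8. Ranked per kb, 19 matrix genes were among the 300 highest. Matrix genes as a whole held 7.79%, 9.95% and 7.17% of the summed back-transformed values of replicates 1, 2 and 3, and replicate 2 was the highest.

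Glycoproteins were the largest set of matrix genes, with 14 of the 34, from a list of 73. Fbln2, which encodes the basement membrane and elastic fibre protein fibulin-2, was steady at 16.40, 16.27 and 16.41. Tnc, the gene of tenascin-C, an adhesion-modulating protein of tumour and wound matrix, had 15.35, 16.88 and 15.84 and was highest in replicate 2. Igfbp4, which binds insulin-like growth factors, had 15.99, 15.16 and 15.88 and was lowest in replicate 2. Sparc, the gene of a collagen-binding calcium protein, had 15.11, 15.14 and 14.27. Laminin chains Lamb1, Lama5 and Lamc1, the linker gene Nid1, and Thbs1, Ccn1, Ltbp1 and Ecm1 completed the set together with Fn1 and Spp1.

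Collagens gave 8 of the 34, from a list of 42. Col18a1, whose chain belongs to basement membranes, had the highest mean of them, with 15.87, 15.20 and 15.45 and no library far from the others. The fibrillar collagen genes behaved differently. Col3a1 (chromosome 1, 45311538 to 45349706) had 15.24, 16.60 and 14.36. Col1a1 (chromosome 11, 94936224 to 94953042, plus strand) had 15.42, 15.02 and 12.83, and Col1a2, its partner in type I collagen, had 15.22, 14.69 and 12.64. Both type I genes were lowest in replicate 3. With CT010467.1 these are the 4 of the 300 highest genes that also met the rule for variable genes. Per kb, Col3a1 kept a place at rank 222 and Col1a1 stood at 302 and Col1a2 at 765.

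Modifying enzymes followed, with P4hb, a subunit of the prolyl hydroxylase that matures collagen, at 14.92, 14.96 and 14.78, and Loxl2, a cross-linking amine oxidase, at 13.64, 14.69 and 13.56. The proteoglycan genes in the set were Hspg2, the gene of perlecan (15.24, 15.65 and 15.63), Vcan and Sdc1. Timp2, an inhibitor of metalloproteinases, had 15.67, 15.05 and 15.14 and was high in replicate 1.

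The cytoskeleton was the largest group, with 42 of the 300 places from 165 genes, 34 of them by the ranking per kb. Its parts were 33 genes of actin and contractility and 9 of intermediate filaments and microtubules. Myh9, the heavy chain of nonmuscle myosin II, had 16.88, 16.75 and 16.97, and the actin crosslinker Flna had 16.44, 16.19 and 16.26. The nonmuscle actins were highest in replicate 1, with Actg1 at 17.05, 16.41 and 16.36 and Actb at 16.44, 15.98 and 15.91. Dst, which links filament systems to adhesion sites, had 13.94, 15.40 and 15.50, and Flnc, a filamin of muscle and stressed cells, had 13.21, 15.05 and 14.46. Both of these were low in replicate 1. Among the keratins only Krt8 and Krt18 were in the set.

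Contacts with matrix and neighbours gave 14 genes from a list of 92. Emp1, a small membrane protein gene, had 16.41, 15.71 and 16.17. Itgb1, the beta chain shared by most collagen, laminin and fibronectin receptors, had 15.75, 15.59 and 15.68, and Cd44, the hyaluronan receptor gene, had 15.51, 15.45 and 15.65. Neither gene had a library that stood off from the rest. The alpha chains Itga5 and Itgav, of fibronectin receptors, and Itga6, Itga3 and Itgb4, of laminin receptors, were all in the set, as were Vcl, Tln1 and the catenin genes Ctnnb1, Ctnna1 and Ctnnd1. Annexins, S100 proteins and galectins added 8 genes of 37, led by Anxa2 (15.96, 15.36 and 15.60), Lgals1 and S100a6.

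Protein synthesis was spread over several lists. Cytosolic ribosomal protein genes held 16 of the 300 places on the deposited scale and 47 per kb, from 90 genes, of which 85 had a mean of at least 8. Translation factors held 14 places, from 64 genes. Eef2, the translocation factor, had 16.15, 15.65 and 15.36, and Pabpc1, the poly(A)-binding protein gene, had 15.78, 15.05 and 15.32. Rplp0, of the ribosomal stalk, had 15.61, 15.07 and 15.12. Each of the 3 was highest in replicate 1.

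Protein folding and turnover came next. Cytosolic chaperones held 12 places from 38 genes, with Hspa8 at 16.40, 16.40 and 16.59 and Hsp90ab1 at 16.42, 16.22 and 16.26. The stress-induced Hspa1b was less even, at 13.89, 14.93 and 15.36. In the secretory pathway, which held 9 places from 101 genes, the endoplasmic reticulum chaperone gene Hspa5 had 14.93, 15.81 and 15.98, lowest in replicate 1, while Calr varied little at 14.44, 14.48 and 14.50. The ubiquitin gene Ubb and the ligase gene Nedd4 were among 6 genes of ubiquitin and the proteasome, from a list of 76. Lysosomal genes gave 7 of 66, with Sqstm1, an autophagy receptor gene, and the cathepsins Ctsb, Ctsl and Ctsd.

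Glycolysis gave 10 genes from a list of 35. Pkm, the pyruvate kinase gene, had 16.20, 16.01 and 16.11, and Gapdh, Eno1, Aldoa, Pgk1, Ldha, Pgam1 and Tpi1 were in the set as well. Of the others, Slc2a1, the glucose transporter gene Glut1 (13.55, 14.47 and 14.50), and Hk2, a hexokinase gene (12.78, 14.38 and 14.41), were both low in replicate 1. Nuclear genes of the respiratory chain gave 2, Atp5b and Atp5a1, from a list of 96.

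Transcription factors in the set were mostly immediate early genes, which cells switch on within minutes of a stimulus and which tissue dissociation is also known to induce. Of 26 immediate early genes in the table, all had a mean of at least 8 and 9 were in the 300. Egr1 had 15.19, 15.86 and 15.42, Fosb 15.33, 14.85 and 14.44, and Fos 14.84, 15.05 and 14.33. Whether the sort raised them was not tested. Sox9, a factor of duct and progenitor cells, had 13.75, 14.26 and 14.09 and was the only duct regulator in the set.

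Signalling genes made up 9 places for growth factors, cytokines and their receptors, from 108 genes, and 12 for intracellular signalling, from 111. Lrp1, an endocytic receptor gene, had 15.04, 15.54 and 14.85. Clu, which encodes the secreted chaperone clusterin, had 14.82, 14.71 and 15.86 and stood high in replicate 3. Axl, a receptor tyrosine kinase gene, had 14.78, 14.03 and 14.37. Vegfa, the angiogenic growth factor gene, had 13.24, 14.37 and 14.46 and was low in replicate 1. The cyclin genes Ccnd1 (14.62, 13.35 and 13.90) and Ccnd2 (13.60, 14.14 and 13.31) were both in the set but were highest in different libraries. No gene of the cell cycle list, which does not hold these cyclins, was among the 300. None of the list of MHC class I and interferon-induced genes was either, but 3 of 28 were among the 300 highest per kb.

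RNA of the mitochondrial genome gave 8 places by annotation, and 3 pseudogenes among the 300 match it as well. Gm10925 was identical to mt-Atp6 over 678 bases, Gm28437 to mt-Co3 over 783 and Gm28661 to mt-Co2 over 681. Gm28437 had 15.31, 15.23 and 15.41, while mt-Co3 itself was listed at 10.52, 10.44 and 8.75. No source used here says how reads of such identical copies were divided, so neither level can be assigned to a copy. The ribosomal RNA gene mt-Rnr1 had 14.31, 15.64 and 15.96 and the nuclear RNA Malat1 had 14.29, 15.92 and 16.02, and both were low in replicate 1.

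**Figure D2:**
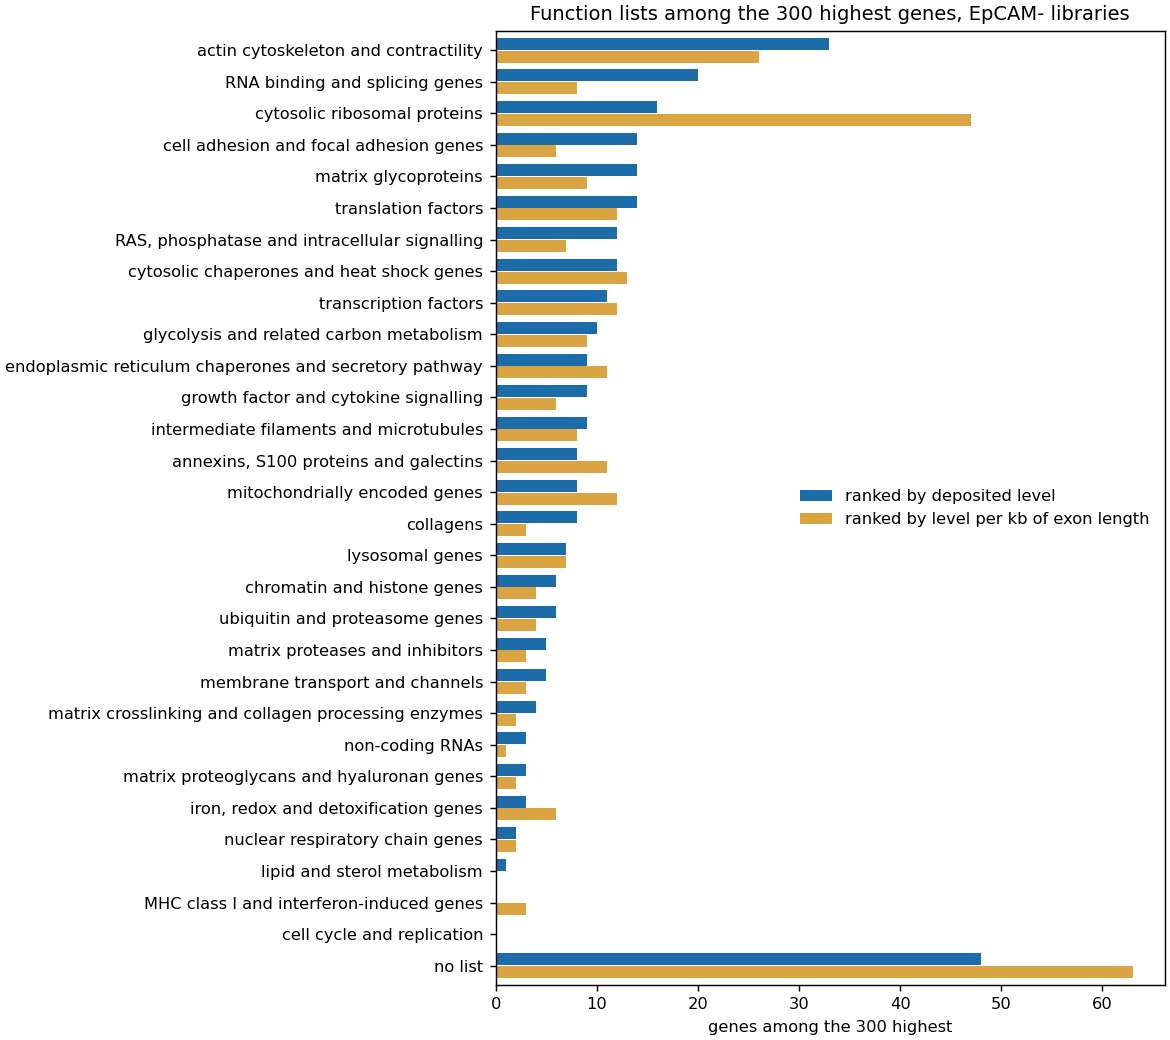
Number of genes of each function list (rows) among the 300 highest genes, counted when ranked by deposited level (blue) and by level per kb of exon length (gold). Cytosolic ribosomal proteins go from 16 to 47 between the rankings, and the actin list leads by deposited level.

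Promoters of the members were read from RefSeq (GRCm38.p6), for 224 of the 300 genes and 80 of the 123, with some genes having more than 1 start. Letters were searched on both strands, and a match is a description of sequence only. GGGCGG, the core letters of an Sp1 site, lay in the 250 bases before the start in 67.3% of the promoters of the 300 highest genes. The share was 61.7% for genes with a mean of at least 8, 32.7% for all promoters and 35.4% for the variable genes. TATAAA lay in the last 50 bases before the start in 5.67%, 1.62%, 3.50% and 5.05% of the same sets in that order. CACGTG was found in 10.7% of the promoters of the 300 against 8.76% for genes with a mean of at least 8.

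The 17 promoters of the 300 with TATAAA include those of Igfbp4, Eef2, Fos, Anxa2 and the marker Vim. In Vim and Anxa2 the letters also lie in an exon of a longer GENCODE transcript. Stretches of the first 3 genes are shown with that of Postn, a variable gene, because they set abundant genes of secretion, translation and the immediate early response beside a gene of unequal level. Each reads 5′ to 3′ on the gene's strand, with the matched letters in capitals.
Igfbp4, chr11:99041201-99041236, plus strand: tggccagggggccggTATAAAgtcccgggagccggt
Eef2, chr10:81176601-81176630, plus strand: caaccggcgtcgaccTATAAAaggccgggc
Fos, chr12:85473842-85473877, plus strand: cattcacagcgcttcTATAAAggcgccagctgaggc
Postn, chr3:54361066-54361101, plus strand: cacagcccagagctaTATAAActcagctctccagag
All 4 stretches lie within the 50 bases before the start that RefSeq gives.

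The thresholds divide a continuous range. Just inside the 300 were S100a11, Cdc42 and Bmp1, with means of 13.61, 13.60 and 13.60, and just outside were Btg1, Hnrnpf and Polr2a, with 13.60, 13.59 and 13.58. For the variable genes, Aqp3, Cxcl2 and Chl1 had the smallest SDs that were kept, at 1.00, 1.01 and 1.01, and Gldc, mt-Co3 and Mirg, at 0.999, 0.998 and 0.997, were left out. On the mean, Cldn1, Igf1 and Gbp3 were kept with 8.01, 8.01 and 8.02, and Lpl, Rbfox1 and Gm42679 were left out with 7.98, 7.98 and 7.92.

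The 123 variable genes were moderately expressed for the most part. Their median mean was 8.93, with 69 of them between 8 and 9 and 34 at 10 or more. The SD ranged up to 2.90 with a median of 1.26, and 31 genes had at least 1.5. By annotation 114 were protein-coding. Of the 123, 54 were in at least 1 gene list and 69 in none.

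**Figure D3:**
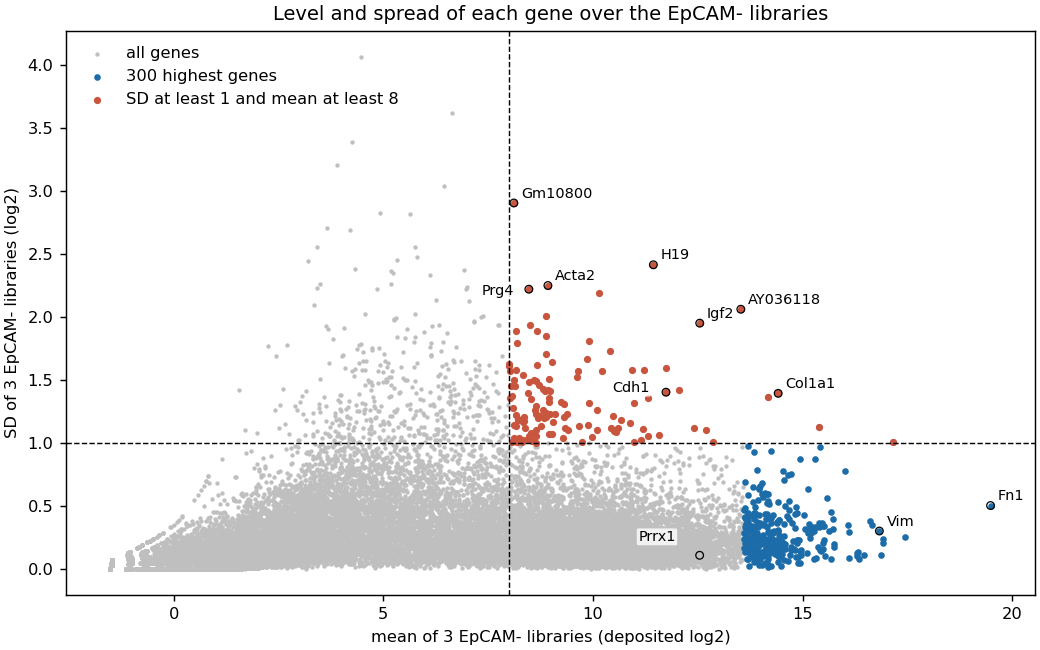
SD over the 3 EpCAM- libraries (vertical axis, log2) against the mean (horizontal axis, deposited log2) for every gene; the 300 highest genes are blue, the 123 variable genes red, and dashed lines mark the thresholds of 8 and 1. Most of the red points lie near a mean of 8, and only 4 genes at the right, among them Col1a1, meet both rules.

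Matrix genes made up 23 of the 123, which is 15.5% of the 148 matrix genes with a mean of at least 8, against 1.35% of all genes at that level. Cytoskeletal genes gave 3 of 125, which is 2.4%. The 85 ribosomal protein genes and the 100 secretory pathway genes gave none, and lists of that size would hold few at the share of all genes. Each variable gene was assigned to the library farthest from the other 2. Replicate 3 was that library for 52 genes, 46 of them low there. Replicate 1 was for 42, with 21 high and 21 low, and replicate 2 for 29, with 24 high and 5 low. The order of replicates 3 and 1 turned under other settings, with 47 genes for replicate 3 against 49 for replicate 1 after scaling to a common median and 87 against 92 at an SD of at least 0.8, while quantile normalisation gave 48 against 47. Among all genes with a mean of at least 8, replicate 3 was the low outlying library in 12.4%, and replicate 1 was the high one in 30.2%. Counted by lowest value instead, 77 of the 123 were lowest in replicate 3, 33 in replicate 1 and 13 in replicate 2. The shares of all genes at that level were 29.6%, 29.8% and 40.6% in the same order. The highest value lay in replicate 3 for 14, in replicate 1 for 46 and in replicate 2 for 63.

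The genes low in replicate 3 were led by Acta2, the smooth muscle actin gene of myofibroblasts and pericytes (chromosome 19, 34241090 to 34255590, minus strand), with 10.70, 9.69 and 6.39. Serpinf1, which encodes the antiangiogenic serpin PEDF, had 10.71, 11.99 and 7.73. Postn, the gene of the matricellular protein periostin, had 11.33, 10.53 and 7.88. In all 3 genes replicate 3 lay well below replicates 1 and 2, which also differed from each other.

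Small leucine-rich proteoglycans of collagen fibrils were also lowest in replicate 3, with Lum at 10.38, 9.24 and 7.02 and Dcn at 11.07, 12.24 and 9.60. Further members of the class were the collagens Col1a1, Col1a2 and Col6a3, the microfibril genes Emilin1 and Ltbp2, the oxidase gene Loxl1, the laminin chain gene Lama2 and the protease gene Mmp2 (13.10, 13.73 and 11.76). Surface genes of stroma were in it too. Pdgfrb, the receptor of fibroblasts and pericytes, had 9.41, 10.07 and 7.34. Thy1 had 11.75, 11.91 and 9.92, Cd34 had 12.86, 12.45 and 9.92, and Cd248 had 9.66, 9.49 and 7.49. Tagln, an actin-binding protein gene of smooth muscle, had 10.23, 8.77 and 7.00.

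Of the 15 pan-fibroblast markers with a mean of at least 8, 11 were variable, where 1.35% of all genes at that level were. Of these 15 markers, 13 had their lowest value in replicate 3, where 29.6% of all genes at that level did. Their median deviation from each gene's mean was 0.10, 0.62 and -1.27 in the 3 libraries, while over all genes at that level it was 0.06, -0.03 and -0.02. Without replicate 3, and with the SD taken over the remaining pair, 2 of the list met the rule. In pooled RNA, fewer cells of a type and less RNA per cell cannot be told apart. The summed share of the macrophage list was 0.00539%, 0.00474% and 0.00432%, and that of the endothelial list 0.0171%, 0.0363% and 0.0298%. In the endothelial list only Flt1 had a mean of at least 8. The mean level of that list was 4.98, 4.90 and 4.65, an order unlike that of its summed share. The pericyte and smooth muscle list had 0.0138%, 0.0119% and 0.0102%, and its mean level was 6.03, 5.58 and 5.19, so this list, which holds Acta2, had replicate 3 lowest too. Of its markers, Rgs5 had 9.22, 8.79 and 10.44 and Kcnj8 2.99, 2.16 and 1.97. The 15 mesenchymal markers had mean levels of 12.78, 12.95 and 12.39, so replicate 3 was lowest for this list as well. Of the 15, 8 were lowest in replicate 3 and 0 highest there, and 1, Mmp2, was variable.

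Igf2, a fetal growth factor gene (chromosome 7, 142650766 to 142666816, minus strand), had 14.00, 13.32 and 10.33. Its imprinted neighbour H19, a noncoding RNA gene (142575529 to 142578143 on the same strand), had 14.03, 9.25 and 11.04, the second largest SD of the 123. Both were highest in replicate 1. In the lowest library they differed, since H19 was lowest in replicate 2 and Igf2 in replicate 3.

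The other genes high in replicate 1 included several secreted proteins. Gas6, the ligand of Axl, had 10.63, 8.07 and 6.83. Sfrp1, a secreted Wnt antagonist gene, had 10.89, 8.36 and 7.81, and Igf1 had 9.66, 7.92 and 6.44. Each of these genes had replicate 1 more than 1 log2 unit above the next library. In Gas6 and Igf1, but not in Sfrp1, replicate 3 also lay more than 1 unit below replicate 2, so replicate 1 did not stand alone. The matrix protein genes Prelp (10.13, 7.99 and 6.36) and Sparcl1 (10.62, 8.56 and 6.85) were stepped in the same way. Slit3 and Sema3c, guidance molecules, were in the class, as was the neurofilament gene Nefl at 11.21, 9.24 and 9.22.

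The largest SD of all belonged to Gm10800, a predicted gene, with 4.93, 10.62 and 8.79. AY036118 had 11.38, 15.49 and 13.71. It is annotated on chromosome 17 from 39847113 to 39848035, wholly inside CT010467.1 (39846353 to 39848827) on the same strand. Reads from the shared bases can come from either gene, and how they were divided is not given. CT010467.1 had 16.16, 18.17 and 17.12. Whether the level of AY036118 reflects ribosomal RNA sequence was not tested. All 3 genes were lowest in replicate 1 and highest in replicate 2.

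Genes of the responses to hypoxia and to interferon were low in replicate 1. For hypoxia, Pfkfb3, the kinase gene that drives glycolytic flux, had 11.42, 13.27 and 13.40, and Adm, the vasodilator peptide gene, had 7.04, 8.64 and 8.91. Over 23 hypoxia genes, 21 had their lowest value in replicate 1, where 29.8% of all genes with a mean of at least 8 did. Their median deviation was -0.48, 0.28 and 0.25. Of the 23, 2 met the SD rule, which is 8.70%, beside 1.35% of all genes at that level. In the 300, which are 1.15% of all genes in the table, were 5 of them: Bhlhe40, Ndrg1, Slc2a1, Vegfa and Ero1l.

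For interferon, the list of stimulated genes had 18 members with a mean of at least 8, of which 17 were highest in replicate 2, where 27.6% of all genes at that level were, and 17 lowest in replicate 1. The median deviation was -0.68, 0.89 and -0.05. Variable members were 7, which is 38.9% of the 18, beside 1.35% of all genes at that level. Ifit3, of the family that binds foreign RNA, had 7.45, 10.24 and 9.22, and Ifit1 had 7.58, 9.90 and 9.46. Rsad2, the antiviral enzyme viperin, had 7.96, 10.57 and 9.41. In all 3 genes replicate 1 was low and replicate 2 high. Oasl2 had 7.06, 9.85 and 8.41, Gbp3 6.74, 9.44 and 7.87, and the RNA sensor gene Ifih1 7.59, 9.70 and 8.62.

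These promoters are shown because their genes moved together between libraries. The letters GAAA repeated after any 2 bases, which is the core of an interferon-stimulated response element, were found in 5 of the 7 variable interferon genes and in 12 of 27 other genes of the list, against 3.46% of all genes with a promoter and 3.08% of those with a mean of at least 8. Among the 80 variable genes read they were found in 8, and 5 of these are the interferon genes. On the opposite strand they read as TTTC repeated in the same way, and capitals mark them.
Ifit1, chr19:34640770-34640828, plus strand: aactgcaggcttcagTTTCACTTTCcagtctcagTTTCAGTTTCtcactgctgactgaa
Ifit3, chr19:34583358-34583431, plus strand: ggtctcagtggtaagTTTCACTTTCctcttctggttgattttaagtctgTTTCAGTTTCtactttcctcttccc
Gbp3, chr3:142559984-142560029, plus strand: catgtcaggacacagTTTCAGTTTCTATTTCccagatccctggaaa
Rsad2, chr12:26456548-26456587, minus strand: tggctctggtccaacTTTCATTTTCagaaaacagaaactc
Ifit1, Ifit3 and Gbp3 hold 2 matches each, and those of Gbp3 overlap. The stretch of Ifit3b is letter for letter that of Ifit3, and reads of this gene pair may be divided between near-identical copies. No match was found in the windows of Oasl2 and Ifih1.

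Replicate 2 was the farthest library, and high, for 24 genes. In some of them, such as Oasl2 and Ifih1 above, the values were nearly evenly spaced, so replicate 2 did not stand alone. Prg4, the gene of the joint lubricant lubricin, had 6.80, 10.99 and 7.63, and F5, the coagulation factor V gene, had 7.70, 11.21 and 7.76. Ptn, a heparin-binding growth factor gene, had 8.33, 10.94 and 7.37. Cp, the gene of the copper carrier ceruloplasmin (11.71, 13.60 and 10.81), was in the class with the guidance gene Ntn1 and the neutrophil-attracting chemokine genes Cxcl1 (8.86, 11.79 and 8.94) and Cxcl2 (10.83, 12.04 and 10.04). Of 12 chemokine and cytokine genes with a mean of at least 8, 9 were highest in replicate 2, beside 27.6% of all genes at that level. Of 10 neutrophil markers, 9 had a mean under 5, among them S100a8 (2.26, 2.18 and 2.39). The other, Mmp9, had 8.55, 9.12 and 7.36 and was also highest in replicate 2; the part of neutrophils in the chemokine levels was not tested.

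Few genes made the remaining classes. Low in replicate 2 were Lamb3, a chain of the epithelial laminin (11.49, 9.56 and 11.63), Atp2a3, Dynap, Thbs4 and Frmd4b. High in replicate 3 were Cdh1, Col2a1, Fat2, Smoc1, Rasef and Aqp3. Cdh1, the gene of E-cadherin (chromosome 8, 106603351 to 106670246), had 11.51, 10.47 and 13.25. The same library had the lowest Epcam, at 7.22, and its Krt8 value of 14.05 was close to that of replicate 1, so the epithelial genes did not share one order. The summed share of the 20 epithelial markers was 0.162%, 0.0947% and 0.189%.

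**Figure D4:**
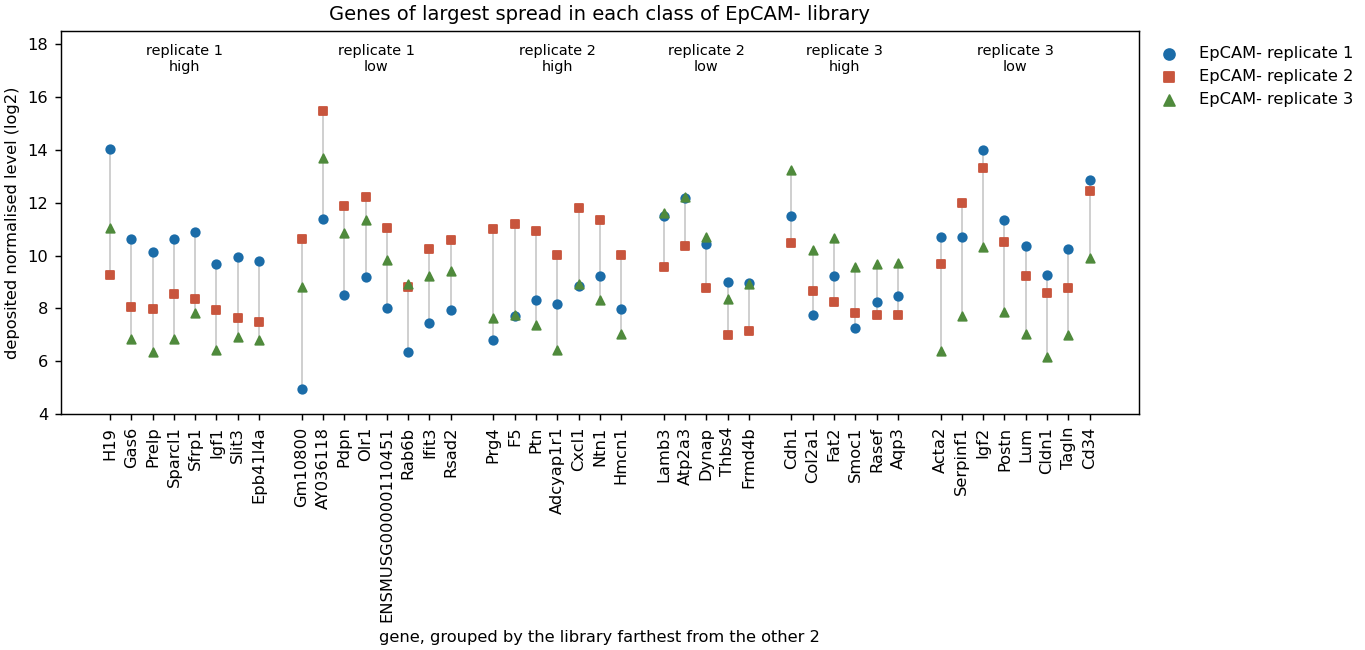
Deposited normalised level (log2, vertical axis) of variable genes among the 8 of largest SD in each class (horizontal axis), the class naming the library farthest from the other 2 and whether it was high or low; each symbol is 1 library and grey lines span the range. Acta2, Igf2, Postn and Lum have replicate 3 at the bottom, and Cdh1 has it at the top.

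Gene lists that held few variable genes still differed between the libraries. All 25 mitosis genes were highest in replicate 1, with a median deviation of 0.54, -0.35 and -0.18, and 19 of 22 S phase genes were. Top2a, the topoisomerase gene of dividing cells, had 12.96, 11.92 and 12.17, and Mki67 had 11.53, 11.01 and 11.33. All 85 ribosomal protein genes and 78 of 82 nuclear genes of the respiratory chain were highest in replicate 1 too, with smaller median deviations there of 0.29 and 0.26. Of all genes with a mean of at least 8, 48.0% were highest in replicate 1.

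Transcript length moved with that library. Those of the 9079 genes with a known exon length were divided by it into 10 sets of nearly equal size. In the shortest set, with a median of 1434 bases, the median deviation was 0.20, -0.11 and -0.08 in replicates 1, 2 and 3, and in the longest, with a median of 13346 bases, it was -0.13, 0.09 and 0.06. With the median of its length set subtracted from each gene, a step chosen after these values were seen, the deviation in replicate 1 became 0.12 for ribosomal proteins, 0.09 for the respiratory chain, 0.49 for mitosis and -0.56 for hypoxia. For interferon genes in replicate 2 it became 0.97, and for fibroblast markers in replicate 3 it became -1.20. For S phase genes it went from 0.27 to 0.17. The values of the ribosomal, respiratory and S phase lists in replicate 1 were thus the more reduced among those named here.

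Of 13 factors of the epithelial to mesenchymal transition with a mean of at least 8, none was variable, where 1.35% of all genes at that level were. A list of that size would hold few or none at that share. The median SD of the 13 factors was 0.27 beside 0.20 for all genes. Their highest value was in replicate 2 for 11 of them, with a median deviation of 0.18, and 27.6% of all genes at that level had theirs there. Sox4 was nearly the same in all libraries, at 13.23, 13.30 and 13.22. Snai1 had 8.80, 9.14 and 8.95. Runx2, at 10.44, 11.30 and 11.21, was low in replicate 1. Of 22 genes that respond to TGF-beta, the cytokine that drives this transition in many carcinomas, 5 were variable. Over all genes at that level the share was 1.35%. The 5 were Acta2, Tagln, Postn, Ltbp2 and Col1a1. All 5 are among the genes described above as low in replicate 3. Of the 22, 11 were lowest in replicate 3 and 9 in replicate 1, beside 29.6% and 29.8% of all genes at that level. Tgfbi (12.07, 12.78 and 13.16) was lowest in replicate 1. The median deviation of the 22 was -0.15, 0.27 and -0.17.

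**Figure D5:**
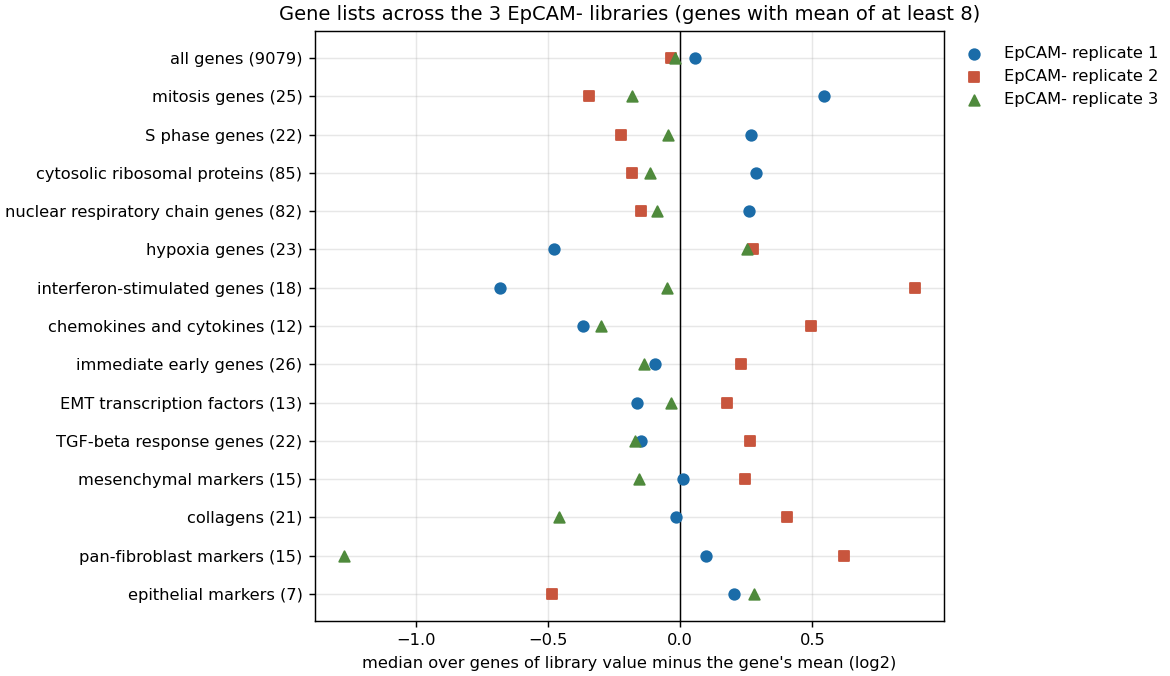
Median over the genes of a list of each library's value minus the gene's mean over the 3 EpCAM- libraries (horizontal axis, log2), for genes with a mean of at least 8; numbers in brackets count the genes, and each symbol is 1 library. Mitosis genes are highest in replicate 1, interferon-stimulated genes in replicate 2, and fibroblast markers are lowest in replicate 3.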

How the data were processed

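RNA of sorted EpCAM- cells was extracted with a MagMAX kit and sequenced on a HiSeq instrument after KAPA mRNA HyperPrep library preparation, per the labels' protocols. The submitters' processing notes name STAR 2.5.2, RSEM, DESeq2 1.24.0 and the build GRCm38 without a role or order. The values deposited by the authors are normalised log2 levels, used as deposited. Their transform and annotation are not given in the sources used here. Depth is unknown, so no counting interval is given, and whether the other libraries of the table shaped the normalisation was not tested.

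Symbols and exon lengths came from GENCODE M21 (GRCm38) by identifier, which left 132 of 25978 genes without a symbol. Means, SDs and ranks were computed with Python 3.11.15 and pandas 2.3.3. Shares of the total are of 2 raised to the deposited value. Pseudogenes were matched with BLAST 2.17.0. The 53 gene lists and the members were chosen with earlier results of these data known; a gene in several function lists was counted in the first, and 27 listed symbols had no match. Named genes are the marker genes, the 20 highest, the highest of each list, the variable genes of largest SD by class and list, and the neighbours of each threshold; further list members and the search for the interferon response letters were chosen after values were seen. Some genes and alleles are not reported here. Alternatives were the ranking per kb, other cut-offs, other averages and normalisations, pseudocounts of 1 and 5, and leaving out each library.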

Additional observations from a re-analysis of the deposited data

How the results depend on the processing

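Ranking per kb of exon length shared 175 genes with the 300 and counted 19 matrix and 47 ribosomal protein genes, and with protein-coding genes only, an alternative chosen after seeing the data, 182 shared genes and 52 ribosomal protein genes. Among the highest 100 there were 14 matrix, 4 ribosomal protein, 17 cytoskeletal and 4 secretory pathway genes, and among the highest 500 there were 32 ribosomal protein and 17 secretory pathway genes. Variable genes numbered 244 at an SD of at least 0.8, 31 at 1.5, 191 at a mean of at least 7, 54 at 9 and 547 with no limit on the mean. Their number was 121 or 122 under both pseudocounts, quantile normalisation and a common median, with 117 to 122 of the 123 kept. Leaving out 1 library shared 280 to 289 of the 300 and gave 136 to 142 variable genes, but only 71, 73 and 63 of the 123 were kept without replicate 1, 2 and 3, since an SD over 2 libraries turns on their difference alone. Members of the fibroblast list among the variable genes then numbered 11, 9 and 2. No paired analysis was possible because no result here comes from a test between groups. With 3 libraries, an SD is itself imprecise, and depth is unknown.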
